A study of Mus musculus with 8 samples.

Results

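The immediate early genes examined here were 10 activity-regulated genes, chosen by name: Fos, Fosb, Junb, Egr1, Arc, Npas4, Nr4a1, Dusp1, Ier2 and Btg2. Gene identifiers of the count table were matched to symbols through the GENCODE annotation of GRCm39, and all 10 were found among 22430 listed genes. Each had enough counts to be tested, as did 16730 genes in all. Polyadenylated RNA was sequenced from the brains of male C57Bl/6JRj mice aged 6 months (6m, young adult, 4 animals) or 24 months (24m, aged, 4 animals), with 1 library for each animal and no treatment named. The tissue is called whole brain and brain hemisphere in the labels, so the counts pool all regions and cell types. The time of day at dissection and the handling of the mice before it were not given in the sources used here.

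Immediate early genes are switched on within minutes of a stimulus, without the need for new protein synthesis. In neurons, calcium entry and growth factor signals reach the kinases that phosphorylate CREB, SRF and its partners, which sit at the promoters of these genes before the stimulus arrives. The first products are mostly transcription factors that turn on a later wave of genes, together with proteins that act at the synapse or end the signal. Their transcripts are short-lived, and they are used as markers of recent neuronal activity, although glia and vascular cells induce many of them too.

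Total counts per library were 63460940 to 103462414, and the 10 genes together took 19683 to 40927 of them, or 0.0259 to 0.0540%. Levels are given as CPM, the counts of a gene per 1e+06 counts of its library, with library sizes scaled by trimmed mean of M values (TMM) factors. A gene was called where edgeR's quasi-likelihood test gave a Benjamini-Hochberg adjusted p of 0.05 or lower over all 16730 genes and the log2 fold change reached 0.58 in either direction. The library of 24m replicate 1 stood apart from the other 3 aged libraries: chi-square per degree of freedom against them was 163 to 378, against 11.8 to 55.3 among the others. Results that rest on it are given with and without it.

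At 24m, 4 of the 10 genes were called higher, Fosb, Arc, Btg2 and Egr1, and 0 were called lower. Over all tested genes, 25.3% (4237) were called higher and 18.3% (3058) lower, a split that moved to 5449 and 1746 when library totals alone set the scale, and to 3573 and 3891 with DESeq2 on quantile-normalized counts. At an unadjusted p under 0.05, 5 of the genes were higher and 1 (Ier2) was lower, and neither DESeq2 nor limma-voom called any of them lower (0 each). The median log2 fold change of the 10 genes was 0.36, within a range of -0.33 to 1.32, against -0.0034 for all tested genes. Libraries of the ages did not overlap in 3 of the 10, Fosb and Btg2 above and Ier2 below, where 55.2% of all tested genes were so separated. Without 24m replicate 1, 5 of the 10 were called higher, with Fos added, against 27.8% of all genes. In bulk tissue, a change in the number of cells of a type and a change in RNA per cell cannot be told apart.

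**Figure D1:**
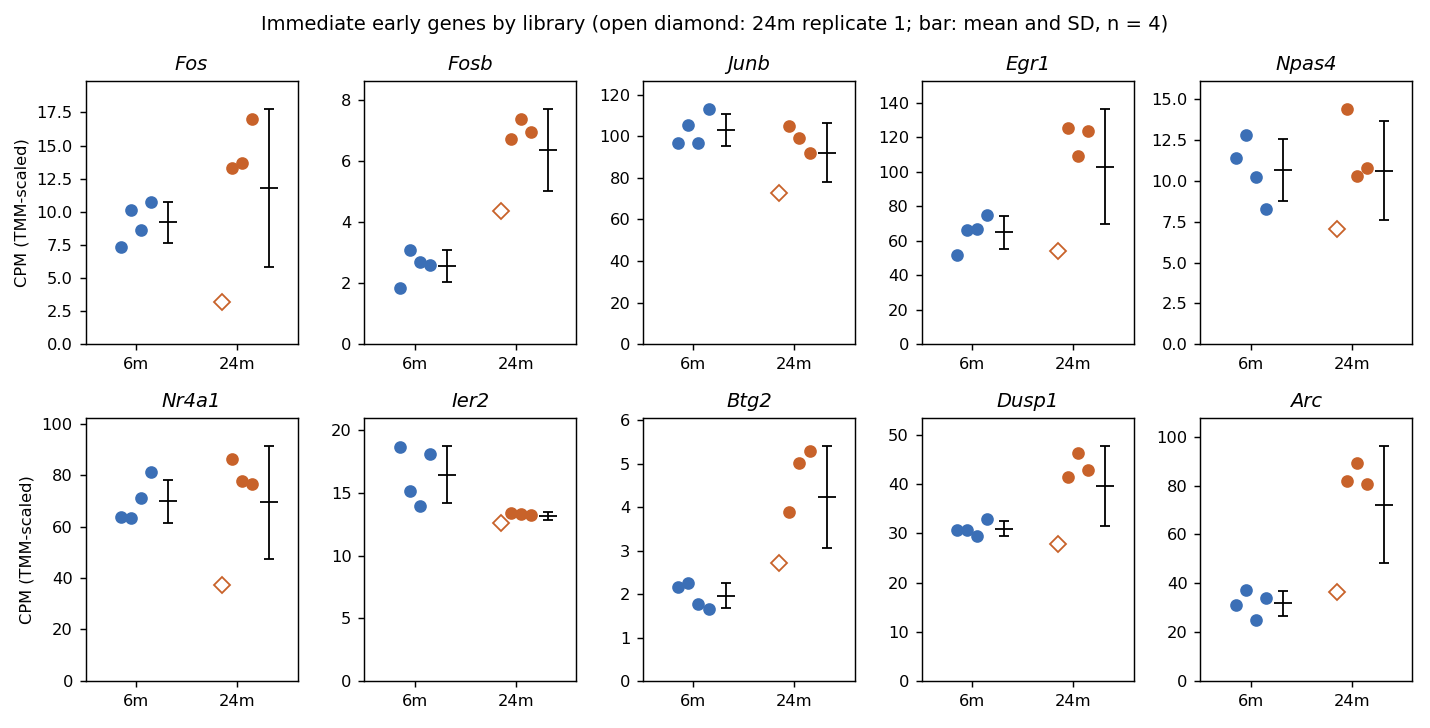
TMM-scaled CPM of the 10 genes in each library of 6m (blue) and 24m (orange), with the mean and SD of 4 libraries per age beside the points and 24m replicate 1 as an open diamond. That library is the lowest of the 4 aged libraries in every panel, and in Fos it lies at 3.21 CPM against 13.3 to 17.0 CPM in the others.

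Fosb, Arc and Btg2 were called higher, Fos differed most among the aged animals, and Ier2 had the lowest fold change but was not called. The promoters of these 5 genes are shown, because they span the range of the age difference. Each is the window from 250 bases before to 50 bases after the start of the canonical transcript, read 5′ to 3′ on the strand of the gene from GRCm39. Capitals mark the cyclic AMP response element (CRE, TGACGTCA), its core TGACG, the TATA box TATAAA, the AP-1 site TGANTCA and the CArG box bound by SRF, searched on both strands. A CRE contains the core, so both are marked by the same letters there. The core was added to the search after the data had been seen.
Fos, chr12:85520408-85520707, plus strand: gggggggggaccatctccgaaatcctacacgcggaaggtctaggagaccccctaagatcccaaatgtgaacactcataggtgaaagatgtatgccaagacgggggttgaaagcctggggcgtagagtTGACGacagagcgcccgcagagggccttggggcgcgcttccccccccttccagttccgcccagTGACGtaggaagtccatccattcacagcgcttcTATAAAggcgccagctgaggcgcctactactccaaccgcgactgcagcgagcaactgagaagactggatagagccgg
Fosb, chr7:19043927-19044226, minus strand: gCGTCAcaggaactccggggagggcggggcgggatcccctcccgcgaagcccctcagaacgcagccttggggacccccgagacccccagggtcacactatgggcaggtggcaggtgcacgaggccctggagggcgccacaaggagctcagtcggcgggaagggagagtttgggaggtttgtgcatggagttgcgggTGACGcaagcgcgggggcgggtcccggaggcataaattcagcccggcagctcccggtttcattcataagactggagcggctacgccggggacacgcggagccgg
Arc, chr15:74544370-74544669, minus strand: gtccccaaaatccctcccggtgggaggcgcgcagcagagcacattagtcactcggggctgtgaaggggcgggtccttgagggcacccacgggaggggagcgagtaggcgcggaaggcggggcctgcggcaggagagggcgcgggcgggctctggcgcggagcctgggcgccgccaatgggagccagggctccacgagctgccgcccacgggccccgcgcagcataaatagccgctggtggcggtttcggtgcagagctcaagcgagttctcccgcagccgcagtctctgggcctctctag
Btg2, chr1:134006809-134007108, minus strand: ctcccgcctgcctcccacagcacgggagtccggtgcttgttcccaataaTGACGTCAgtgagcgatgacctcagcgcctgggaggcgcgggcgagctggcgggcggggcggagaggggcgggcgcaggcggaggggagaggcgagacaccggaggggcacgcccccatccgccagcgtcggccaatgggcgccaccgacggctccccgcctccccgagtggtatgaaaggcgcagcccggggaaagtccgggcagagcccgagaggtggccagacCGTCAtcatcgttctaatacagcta
Ier2, chr8:85389434-85389733, minus strand: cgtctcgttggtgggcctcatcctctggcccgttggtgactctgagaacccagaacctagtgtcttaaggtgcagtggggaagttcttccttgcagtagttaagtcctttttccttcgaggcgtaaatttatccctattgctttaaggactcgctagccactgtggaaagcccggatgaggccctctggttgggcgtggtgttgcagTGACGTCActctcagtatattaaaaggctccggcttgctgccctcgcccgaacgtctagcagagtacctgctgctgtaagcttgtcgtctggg

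A full CRE was found in the windows of 3 of the 10 genes, Dusp1, Ier2 and Btg2, and in 2.44% of 21770 promoters of protein-coding genes. In Ier2 it began 43 bases before the transcript start, in Dusp1 96 and in Btg2 201. The CRE core was found in 8 of the 10, all but Arc and Npas4, and in 22.6% of all promoters. In Fos a core began 60 bases before the start and a TATA box 27 bases before it. A TATA box was present in 3 of the 10 (Fos, Junb and Nr4a1) and in 13.2% of all promoters. The AP-1 site and the CArG box were found in 0 of the 10, and in 7.14% and 1.54% of all promoters. A match describes the letters in this window, and binding was not measured. A full CRE was present in 1 of the 4 genes called higher (Btg2) and in 2 of the 6 not called (Dusp1 and Ier2).

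**Figure D2:**
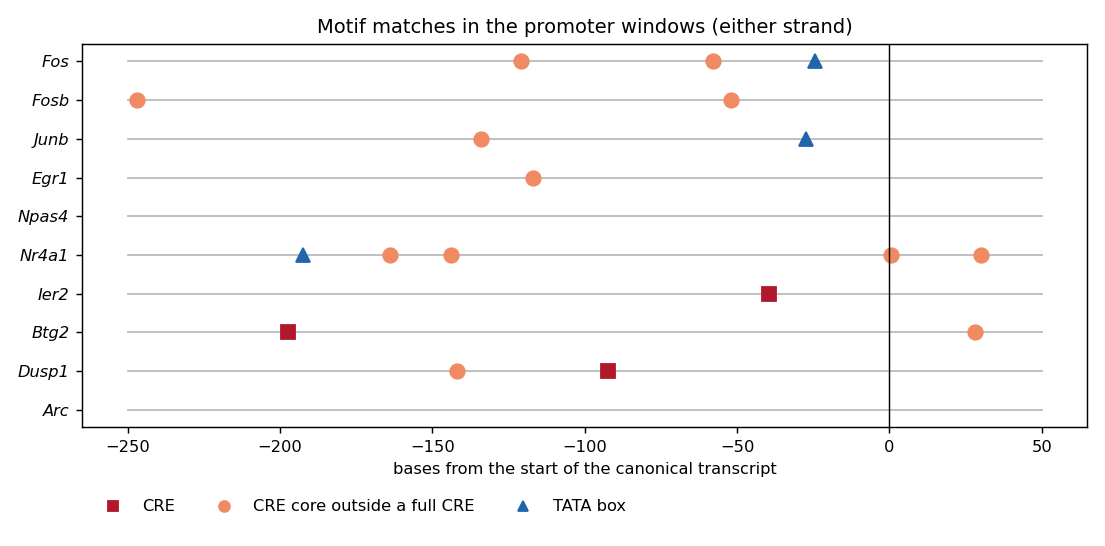
Positions of motif matches on either strand, in bases from the start of the canonical transcript, for the 10 genes. Squares are full CREs (3 genes) and circles are CRE cores outside a full CRE. Triangles are TATAAA matches (3 genes, with that of Nr4a1 on the other strand), and the lines for Arc and Npas4 carry no match.

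Fos, Fosb and Junb encode subunits of AP-1, the dimeric transcription factor that pairs a Fos with a Jun protein. The level of Fosb (ENSMUSG00000003545, chromosome 7, 19036621 to 19043976, GRCm39, 4 exons in the canonical transcript) was 1.83, 3.08, 2.69 and 2.60 CPM in 6m replicates 1 to 4, and 4.38, 6.74, 7.37 and 6.95 CPM in 24m replicates 1 to 4. All aged libraries lay above all young ones, including 24m replicate 1. Fosb rose 2.49-fold, with a log2 fold change of 1.32 ± 0.21 (SE, n = 4 per age, edgeR adjusted p = 0.000557). In this fit it was the largest of the 10 genes. Its call held in all 21 alternatives, with log2 fold changes of 0.97 to 1.54. The rank did not hold in all: Arc was above Fosb with DESeq2 on quantile-normalized counts (1.19 against 0.97) and with the length trend removed (1.38 against 1.18).

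For Fos (ENSMUSG00000021250, chromosome 12, 85520658 to 85524047, 4 exons), the classical marker of activated neurons, the young libraries had 7.32, 10.1, 8.62 and 10.8 CPM. The aged libraries had 3.21, 13.3, 13.7 and 17.0 CPM. Replicate 1 of 24m was the lowest of all 8 libraries and the other 3 aged libraries were the highest. Over all 8 the log2 fold change was 0.35 ± 0.40 (adjusted p = 0.46), and without 24m replicate 1 it was 0.68 ± 0.14 (adjusted p = 0.00148). Other settings moved the value of Fos between 0.05 (DESeq2 on quantile-normalized counts) and 0.81 (length trend removed), with 0.09 in limma-voom and 0.12 without 24m replicate 4, and called it in none but the fit without 24m replicate 1. In counts, Fos had 333 reads in 24m replicate 1, the deepest library, and 1064 to 1483 in the other aged libraries, so the low value does not rest on few reads.

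Junb (ENSMUSG00000052837, chromosome 8, 85701113 to 85705359), a gene of 1 exon, had the highest level of the 10 in 6m, at 96.9, 105, 96.8 and 113 CPM. The aged libraries had 72.7, 105, 99.4 and 92.0 CPM, which overlap those of 6m. Its log2 fold change of -0.16 ± 0.12 missed the threshold (adjusted p = 0.256), and without 24m replicate 1, the lowest of the 8 libraries, it was -0.05 ± 0.07 (adjusted p = 0.565). The fold change of Junb turned positive with library totals alone or with trends over length or GC content removed. Prdx2 and Gm65321 overlap Junb on the other strand, and whether counting used strand was not given in the sources used here. The ratio of Fos to Fosb CPM was 3.21 to 4.14 in 6m and 1.85 to 2.45 in 24m replicates 2 to 4, with 0.733 in 24m replicate 1. This ratio was chosen after the values had been seen and is given without a test.

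**Figure D3:**
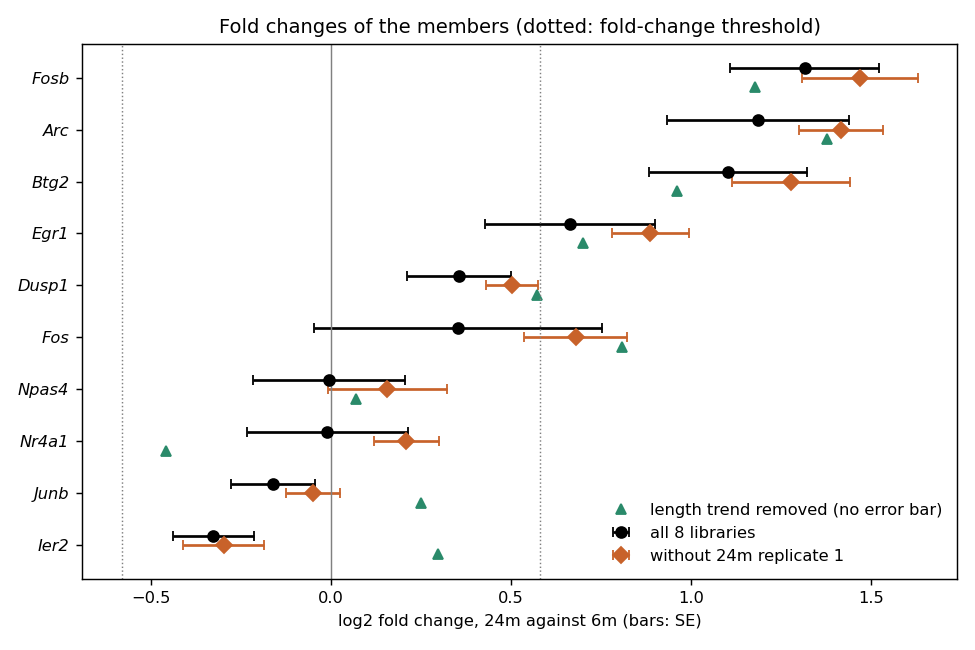
Log2 fold change of each gene, 24m against 6m, with all 8 libraries (circles, SE), without 24m replicate 1 (diamonds, SE) and with the trend over gene length removed (triangles). Fosb, Arc, Btg2 and Egr1 lie beyond the dotted threshold of 0.58 in each, while Junb, Npas4 and Ier2 change sign when the length trend is removed.

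Egr1, a zinc finger transcription factor that serves in synaptic plasticity, was higher in 3 of the aged libraries (ENSMUSG00000038418, chromosome 18, 34992876 to 34998049, 2 exons). It had 51.9, 66.3, 67.0 and 74.8 CPM in 6m and 54.3, 125, 109 and 124 CPM in 24m. Replicate 1 of 24m lay among the young libraries, and the other 3 lay above them. The log2 fold change of 0.67 ± 0.24 was called (adjusted p = 0.0326). The call was lost without any of 6m replicates 1, 2 or 3 or 24m replicates 2, 3 or 4 (adjusted p of 0.0609 to 0.0931, log2 fold changes of 0.56 to 0.68) and with limma-voom (0.0625), and the adjusted p was 2.87e-05 without 24m replicate 1 (log2 fold change 0.89 ± 0.11).

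Npas4 and Nr4a1 were not called, and over all libraries their fold changes were far smaller than their errors. Npas4 (ENSMUSG00000045903, chromosome 19, 5034382 to 5040344, 8 exons) is a neuronal transcription factor induced by calcium entry, and it regulates inhibitory synapses. It had 11.4, 12.8, 10.2 and 8.28 CPM in 6m and 7.04, 14.4, 10.3 and 10.8 CPM in 24m. The ages overlapped throughout, and the log2 fold change was -0.01 ± 0.21 (adjusted p = 0.981), or 0.16 ± 0.16 (adjusted p = 0.413) without 24m replicate 1. Nr4a1 (ENSMUSG00000023034, chromosome 15, 101151980 to 101172681, 7 exons) encodes an orphan nuclear receptor. Its levels were 63.9, 63.3, 71.0 and 81.3 CPM in 6m and 37.3, 86.5, 77.6 and 76.6 CPM in 24m. The lowest value again belonged to 24m replicate 1, and the log2 fold change of Nr4a1 moved from -0.01 ± 0.22 (adjusted p = 0.973) to 0.21 ± 0.09 (adjusted p = 0.0598) without it. Gm63180 and Gm63176 overlap Nr4a1 on the other strand, and Gm56721 on the same strand.

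Btg2, an antiproliferative cofactor that promotes decay of mRNA tails, had the lowest level of the 10 in CPM. It had 2.16, 2.26, 1.77 and 1.66 CPM in 6m and 2.72, 3.89, 5.03 and 5.30 CPM in 24m (ENSMUSG00000020423, chromosome 1, 134002908 to 134015033, 2 exons). All aged libraries lay above all young ones. Btg2 rose by a log2 value of 1.10 ± 0.22 (adjusted p = 0.00189), and the call held in all 21 alternatives. Gm31974 overlaps Btg2 on the other strand.

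Ier2, a nuclear protein induced by growth factors, went the other way. The gene (ENSMUSG00000053560, chromosome 8, 85387960 to 85389483) has 1 exon, and its levels were 18.7, 15.2, 13.9 and 18.1 CPM in 6m and 12.7, 13.4, 13.3 and 13.2 CPM in 24m. Every aged library lay below every young one, although 6m replicate 3 was close to them. With a log2 fold change of -0.33 ± 0.11 the adjusted p was 0.0286, but the size lay inside the threshold of 0.58, so the gene was not called. The adjusted p was above 0.05 without 6m replicate 1 or 4 or 24m replicate 2 or 3 (0.0596 to 0.0895). Quantile-normalized counts gave -0.55 in DESeq2 (adjusted p = 4.35e-05), inside the threshold too. The fold change shrank to -0.10 (adjusted p = 0.439) with library totals alone and to -0.08 (adjusted p = 0.565) with the GC trend removed, and was 0.30 (adjusted p = 0.066) with the length trend removed.

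Dusp1 and Arc encode effectors of other kinds. Dusp1 (ENSMUSG00000024190, chromosome 17, 26724564 to 26781102, 4 exons) encodes a phosphatase that switches off MAP kinases. It had 30.7, 30.8, 29.5 and 33.0 CPM in 6m and 27.9, 41.5, 46.5 and 42.9 CPM in 24m. The young libraries were close to each other, 3 aged libraries lay above them and 24m replicate 1 below. Over all libraries the log2 difference was 0.36 ± 0.15 (adjusted p = 0.0542), and it was 0.50 ± 0.07 (adjusted p = 0.000107) without 24m replicate 1, still under the fold-change threshold. Dusp1 was called higher in 1 of its 21 alternatives, with library totals alone (0.59). Ergic1, Gm56886, Gm64855 and Gm8225 overlap Dusp1 on the other strand, and Gm50274 and Gm50275 on the same strand.

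Arc (ENSMUSG00000022602, chromosome 15, 74540932 to 74544419, 3 exons), a synaptic protein related to retroviral Gag that takes part in AMPA receptor endocytosis, was called higher. It had 31.0, 37.1, 24.8 and 33.9 CPM in 6m and 36.5, 82.0, 89.3 and 80.8 CPM in 24m. Replicate 1 of 24m lay within the young range, and the other 3 aged libraries stood well above it. Arc rose by a log2 value of 1.19 ± 0.25 (adjusted p = 0.00277) over all libraries and 1.42 ± 0.12 (adjusted p = 2.24e-06) without that library.

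Per kilobase of the canonical transcript, the order of mean levels in 6m ran from Junb (56.9 CPM per kilobase) through Nr4a1 (27.4), Dusp1 (15.6), Egr1 (14.5), Ier2 (10.8), Arc (10.4), Fos (4.36), Npas4 (2.95) and Btg2 (0.717) to Fosb (0.674). Neighbours in this order overlapped between libraries except Junb and Nr4a1, Nr4a1 and Dusp1, Arc and Fos, and Npas4 and Btg2. At 24m Junb (51.0) and Nr4a1 (27.3) still led, followed by Arc (23.6) and Egr1 (22.9), with Dusp1 at 19.9, Ier2 at 8.63, Fos at 5.58, Npas4 at 2.94, Fosb at 1.68 and Btg2 at 1.54. Neighbours at 24m overlapped except Junb and Nr4a1, Dusp1 and Ier2, and Ier2 and Fos. Arc stood in the sixth place at 6m and the third at 24m. These levels assume that reads came from the canonical transcript.

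**Figure D4:**
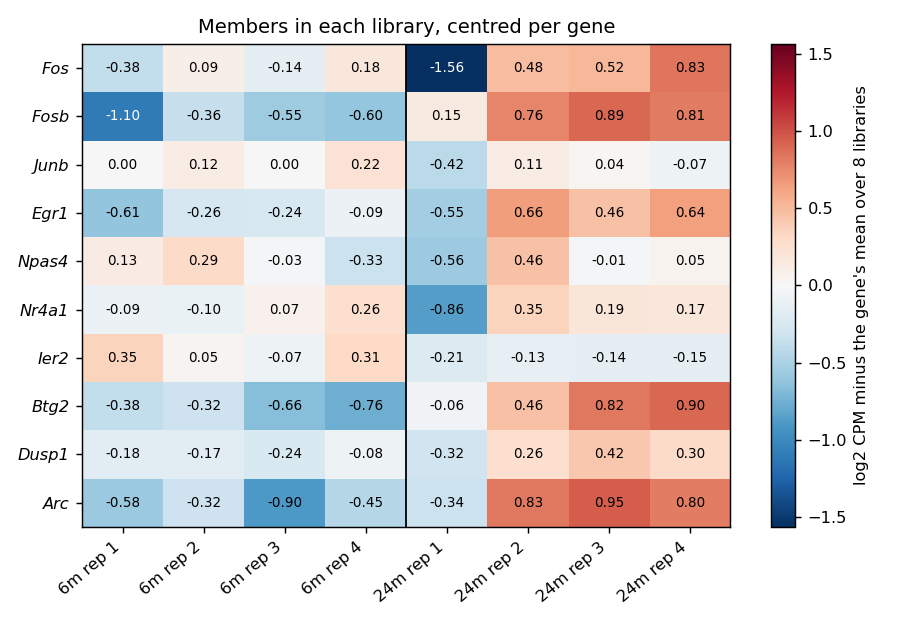
Log2 CPM of each gene in each library, centred on the mean of the gene over the 8 libraries, with red above and blue below that mean. The column of 24m replicate 1 is below the mean in each gene but Fosb, and 24m replicates 2 to 4 are all above it except in Junb, Npas4 and Ier2.

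The SD of log2 CPM was larger at 24m than at 6m in 9 of the 10 genes, all but Ier2 (0.04 against 0.20), and it was smaller without 24m replicate 1 in all 10. Over the 13970 genes the median SD moved likewise, from 0.134 at 6m to 0.222 at 24m and 0.132 without that library. That library was the lowest of the 4 aged libraries in 10 of 10 genes, where 41.9% of all tested genes had their lowest 24m value there. In 6 of the 10 (Fos, Junb, Npas4, Nr4a1, Dusp1 and Ier2) it was the lowest of all 8 libraries, against 9.63% of tested genes. These counts were made after the values had been seen. Relative to the mean of the other aged libraries, its level was 0.219 for Fos, 0.435 for Arc, 0.455 for Egr1, 0.465 for Nr4a1, 0.574 for Btg2, 0.595 for Npas4, 0.624 for Fosb, 0.639 for Dusp1, 0.736 for Junb and 0.95 for Ier2. The difference in Fos, -2.17 on the log2 scale, was at the 0.0501 percentile of 13970 genes whose mean reached 1 CPM, and those in Arc, Egr1 and Nr4a1 were at the 2.91, 3.79 and 4.27 percentiles. The median difference over all tested genes was -0.002.

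In 24m replicates 2 to 4 alone, the levels of 6 of the 10 genes (Fos, Fosb, Egr1, Arc, Dusp1 and Btg2) lay above every young library, against 36.8% of all tested genes. Most members varied little among them: the SD of log2 CPM over these 3 libraries was 0.01 for Ier2, 0.07 for Fosb, 0.08 for Arc and Dusp1, 0.09 for Junb, 0.10 for Nr4a1 and 0.11 for Egr1. Fos (0.20), Btg2 (0.24) and Npas4 (0.26) varied more, above the median SD of 0.13 over the 13970 genes. Among the young libraries 8 of the 10 genes exceeded the median SD of 0.13, with Fosb at 0.32 and Npas4 at 0.27 the most variable, while Dusp1 (0.07) and Junb (0.11) did not.

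Other measures moved with 24m replicate 1, and their part in its low values was not tested. The 5 blood cell genes, all called lower at 24m, summed to 4156 CPM there, against 1242 to 2123 CPM in the other aged libraries and 5426 to 7605 CPM in 6m. Microglia genes (2 of 8 called higher) summed to 631 CPM, against 453 to 536 CPM in the other aged libraries and 456 to 487 CPM in 6m, and endothelial genes (2 of 8 called higher and 2 lower) to 45.9 CPM, against 57.1 to 70.7 CPM in the other aged libraries and 76.3 to 111 CPM in 6m. Excitatory neuron markers (5 of 8 called higher and 1 lower) summed to 4745 CPM, inside the range of the other aged libraries (4229 to 4810 CPM), against 4614 to 5032 CPM in 6m. Inhibitory neuron markers (3 of 7 higher and 2 lower) summed to 1393 CPM, against 1139 to 1191 CPM in the other aged libraries and 1398 to 1732 CPM in 6m. These sums rest on a few abundant genes: the library was the highest of the 4 aged ones in Slc17a7, Nrgn, Pvalb and Sst but the lowest in the other 6 of 8 excitatory and 5 of 7 inhibitory markers, among them Camk2a (606 CPM, against 930 to 1091 CPM) and Gad1 (166 CPM, against 234 to 381 CPM). It was also the lowest in 7 of 8 endothelial markers, 4 of 8 astrocyte and 4 of 8 oligodendrocyte markers, 2 of 8 microglia and 2 of 8 striatal markers and 1 of 6 choroid plexus markers. Its sums were the highest of the 4 aged libraries for markers of astrocytes (3844 CPM, against 2847 to 3101 CPM in the others and 2892 to 3826 CPM in 6m; 5 of 8 genes called higher and 1 lower) and of oligodendrocytes (4305 CPM, against 3745 to 4096 CPM and 3446 to 4306 CPM; 2 of 8 higher). The same held for markers of striatal projection neurons (1227 CPM, against 932.8 to 1171 CPM and 1238 to 1509 CPM; 2 of 8 higher and 1 lower) and of the choroid plexus (2255 CPM, against 823.2 to 1791 CPM and 1776 to 3198 CPM; 3 of 6 higher). No marker of any list was at 0 in any library. Mitochondrially encoded genes took 3.26% of its counts, against 3.18 to 3.69% in the other aged libraries and 5.26 to 6.52% in 6m.

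Fold changes over all tested genes differed with gene length. When the genes were split into 3 equal classes, those of the shortest exonic length (up to 4252 bases) had a median log2 fold change of -0.38 and those of the longest (7568 bases or more) one of 0.39. Of the 10 genes, Fos, Junb, Arc, Npas4, Dusp1 and Ier2 were in the shortest class, where 9.28% of genes were called higher, and Arc was the 1 of these 6 that was called. The other 3 called genes, Egr1 (4496 bases), Fosb (6243 bases) and Btg2 (6261 bases), were in the middle class, where 25.9% were called higher. Ier2, the shortest (1524 bases), had the lowest fold change. Nr4a1, the longest by exonic length (10903 bases) and the 1 member of the longest class, had -0.01. Exonic length covers all annotated exons of a gene and can far exceed the canonical transcript, which has 2548 bases in Nr4a1 and 2743 in Btg2. The classes and the trend below rest on exonic length. With a smoothed length trend removed from every library, the same 4 genes, Fosb, Arc, Btg2 and Egr1, were called higher, and Dusp1 reached 0.57 (adjusted p = 0.0129). Nr4a1 moved to -0.46 (adjusted p = 0.0561), inside the fold-change threshold. How far length accounts for the values of single genes was not tested.

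The question of whether other activity-regulated genes moved in the same direction was addressed with lists drawn up by function. Of 20 other inducible transcription factors, 7 were called higher, 1 lower and 12 neither (median 0.18), where 25.3% of all tested genes were called higher and 18.3% lower. Nr4a3, a nuclear receptor of the family of Nr4a1, rose from 0.928 ± 0.219 to 4.22 ± 1.55 CPM (mean ± SD of 4 libraries, as for all CPM means), or by a log2 value of 2.18 (adjusted p = 0.000391). Egr3, of the family of Egr1, rose from 7.83 ± 1.78 to 33.5 ± 9.78 CPM (2.09, adjusted p = 0.000138). Fosl2 rose by a log2 value of 1.21, Bhlhe40 by 0.90 and Csrnp1 by 0.63, and the Krüppel-like factor Klf2 fell by 0.59 on the log2 scale (adjusted p = 0.0161). The call of Klf2 was lost without 6m replicate 1 or 3 or 24m replicate 1 or 4, and with library totals alone.

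Of 28 other inducible effectors, 8 were called higher, 3 lower and 17 neither (median 0.24), a share of higher calls near that of all tested genes. With library totals alone the counts were 12 and 1. Tiparp, an ADP-ribosyltransferase, rose from 1.28 ± 0.367 to 3.62 ± 0.79 CPM, the pseudokinase gene Trib1 from 4.01 ± 0.38 to 9.54 ± 1.55 CPM and Dusp4, a MAP kinase phosphatase like Dusp1, from 3.28 ± 0.418 to 7.68 ± 1.56 CPM (edgeR adjusted p of 0.000585, 0.000134 and 0.000361). The 3 that fell were Inhba, a subunit of activin A, from 6.07 ± 0.795 to 1.92 ± 0.0931 CPM (-1.66, adjusted p = 2.5e-05), Gadd45g (-0.76) and Plk3 (-0.62).

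Among 26 genes of the signalling that reaches these promoters, 14 were called higher, 1 (Map2k2) lower and 11 neither (median 0.61), against the same 25.3% and 18.3% over all genes. The number called lower was 3 without 24m replicate 4, 2 without 6m replicate 2 or 3, 4 with the length trend removed and 3 with the GC trend removed. Mrtfb, a coactivator of SRF, rose from 4.93 ± 1.42 to 45.2 ± 21.5 CPM, a log2 difference of 3.20 (adjusted p = 0.000159), Mef2a by a log2 value of 2.86 and the CREB coactivator gene Crtc1 by 1.68. Srf itself rose by 0.62 and Grin1, the obligatory NMDA receptor subunit, by 0.61. Map2k2, a kinase of the MAP kinase cascade, fell by 0.80 on the log2 scale (adjusted p = 0.000753). The 10 heat shock and stress genes, listed because handling of tissue can induce them, were called lower in 3 cases and higher in 0 (4 with library totals alone, 3 with no fold-change threshold and 2 with the length trend removed). Hsp90aa1 fell from 1250 ± 111 to 479 ± 44.9 CPM, and Hspb1 and Ddit3 by 1.01 and 0.98 on the log2 scale. Without 24m replicate 1 the called counts were 9 higher and 0 lower for transcription factors, 9 and 3 for effectors, 15 and 1 for signalling genes and 0 and 3 for stress genes, where 4644 of all 16730 tested genes were called higher and 3661 lower. Many of these genes are overlapped by an annotated gene on the other strand.

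**Figure D5:**
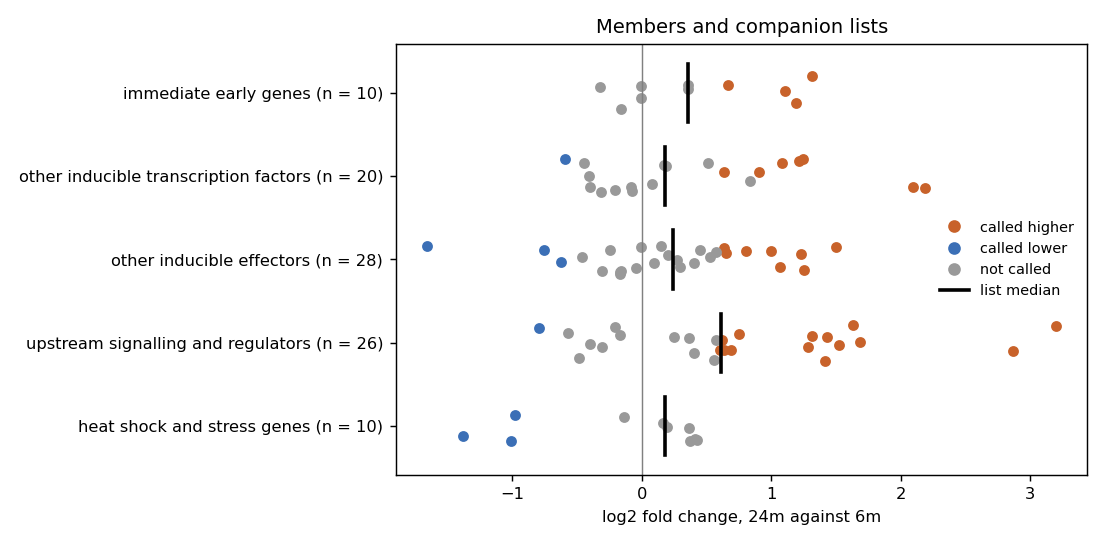
Log2 fold change, 24m against 6m, of each tested gene in the immediate early genes and 4 companion lists, coloured by call, with the list median as a black bar. Medians are 0.36 for the immediate early genes and 0.18, 0.24, 0.61 and 0.18 for the lists below them, and each list holds genes on both sides of 0.

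The genes whose levels over the 8 libraries were most like the mean profile of the 10 were Zfyve26, Ubap2, Adgra1, Myh9 and Vps37a. Likeness was the root mean square difference of log2 CPM, after each gene had been centred on its own mean, and it was 0.075 to 0.086 for these 5. The members themselves lay 0.106 (Dusp1) to 0.488 (Fosb) from their mean profile; the 5 genes were selected as the nearest, so the gap between these ranges carries no information. Dusp1 and Egr1 (0.175) followed the mean profile most closely, and Fos (0.436), Ier2 (0.457) and Fosb lay farthest from it.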

How the data were processed

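Libraries of polyadenylated RNA were directional and read from both ends. According to the submitters' processing notes and the study's methods, the authors used Trim Galore 0.4.11 and HISAT2 2.1.0 on GRCm39 and counted reads per gene with featureCounts. The deposited values are raw counts, one whole number for each gene in each library. Settings for strand and for reads with several alignments were not given in the sources used here, so reads of overlapping genes may be shared. Of 22430 identifiers, 22281 matched the GENCODE annotation (vM39 release) used for symbols, positions and transcript starts. The smallest count of a member in any library was 107.

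A gene was kept if over 5 counts were seen in 4 or more libraries, and was fitted with edgeR 4.0.16 (R 4.3.3) using TMM factors and no term other than age. The thresholds for calls are those of the study. Standard errors were derived from the fold change and the F statistic. A prior count of 2 was used for log2 CPM. Alternatives were DESeq2 1.42.0, limma 3.58.1 (voom), other scalings and filters, removal of trends over length or GC content (lowess span 0.3), the replicate number as a block, and each library left out. The code was checked on simulated counts. Each library came from 1 mouse, so the p-values set the age difference against the spread between animals of an age.

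Named were all 10 members, the called genes of each companion list with the 3 highest and 3 lowest fold changes and a mean of 1 CPM or more, and the 5 genes most like the members. The members and lists were chosen with earlier results of these data known. Of 2 identifiers with the symbol Ddit3, the first was used.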

Additional observations from a re-analysis of the deposited data

Results flagged for a closer look

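In 5 of the 10 genes, 24m replicate 1 lay far from the other 3 aged libraries on the log2 CPM scale, with a gap to its nearest neighbour, divided by the range of the 4 libraries, above the critical value of 0.829. The gap over range was 0.851 for Fos, 0.834 for Egr1, 0.887 for Arc, 0.855 for Nr4a1 and 0.831 for Ier2. The value in 24m replicate 1 was the low one in each of them. In Ier2 the whole range of the aged libraries was 12.7 to 13.4 CPM, so the gap there is a small difference. Chance alone marks about 1 in 20 groups, and 20 groups were checked (10 genes in 2 ages), of which no 6m group was marked. All 5 marks fall on 1 library, so they are not separate events.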

How the results depend on the processing

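Over 21 alternatives, 3 to 5 members were called higher, against 4 in the design reported, and leaving out 1 library also gave 3 to 5. The number called lower stayed at 0, except 1 (Ier2) with no fold-change threshold. Small fold changes turned sign. Junb became positive with library totals alone (0.067), the length trend removed (0.25), the GC trend removed (0.14) and the replicate block with the length trend removed (0.22). Npas4 became positive with library totals (0.22), no low-count filter (0.004), the length (0.071) or GC (0.16) trend removed and the block with the length trend removed (0.042), and ran from -0.186 to 0.157 when 1 library was left out. Nr4a1 became positive with library totals (0.23), quantile-normalized counts (0.071), no low-count filter (0.002) and the GC trend removed (0.15), and ran from -0.132 to 0.21 when 1 library was left out. Ier2 became positive with the length trend removed, without (0.30) or with (0.29) the block. Library totals alone moved the median of all genes to 0.21. Beyond these constructions, the cause was not tested.

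With the replicate block, 4 members were called higher and 0 lower, as without it. The adjusted p of Ier2 was 0.0706 with it, and that of Nr4a1 0.0385 (log2 fold change -0.485) with the block and the length trend removed. The numbers were not taken to pair the animals: same-numbered libraries deviated together with correlations of -0.505 to 0.367 across genes, and 1 of 4 young libraries correlated best with its own number. On the CPM scale 1 gene (Arc) in place of 5 had a library far from the others. By Pearson correlation, 2 of the 5 genes most like the members were shared (Zfyve26 and Ubap2). Called counts of companion genes ranged from 0 to 4 for lower transcription factors, 1 to 4 for lower signalling genes, 5 to 12 for higher and 1 to 4 for lower effectors, and 0 to 4 for higher stress genes.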
